A study of Mus musculus with 12 samples.

Results

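The 149 genes described here are mouse zinc finger genes whose symbol is Zfp followed by a number, and they were chosen by their measured intensity in untreated macrophages. A gene entered when the mean of its 3 untreated arrays was at least 100 intensity units. Zfp36, Zfp36l1 and Zfp36l2 were left out, because they encode a different kind of zinc finger protein. The array measured 333 Zfp-number genes among 18193 genes in all, so 184 Zfp-number genes lay under the threshold, and 8399 genes of any name reached it. The members just inside were Zfp763, Zfp608 and Zfp959, with untreated means of 100.5, 101 and 102 units. Those just outside were Zfp799, Zfp213 and Zfp287, with means of 98.5, 97.7 and 96.3 units.

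The cells were macrophages grown from C57Bl/6 mouse bone marrow in M-CSF, the growth factor that drives macrophage formation. Lipopolysaccharide (LPS), the outer membrane component of Gram-negative bacteria that macrophages sense through Toll-like receptor 4, was given at 100 ng/ml. Restimulated cells had LPS for 18 h, new medium, a 2 h rest and LPS again. Pretreated cells had the 18 h of LPS and the rest but no second dose. Cells given LPS once had only the last dose, and untreated cells had none. Each of the 4 groups had 3 biological replicates, lettered A, B and C, and each replicate was run on 1 Affymetrix array. No sex or age of the mice and no length of the last stimulation is given in the sources used here. The series is titled as a study of LPS tolerance, the reduced response of cells that have met LPS before.

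Most Zfp genes encode C2H2 zinc finger proteins, in which a pair of cysteines and a pair of histidines hold a zinc ion and each finger can contact a few bases of DNA. Many also carry a KRAB domain, which recruits the corepressor TRIM28 and through it the histone methyltransferase SETDB1 and heterochromatin proteins, and a known function of this class is the silencing of endogenous retroviruses. Others act in ribosome assembly, RNA processing or protein ubiquitination. Many lie in tandem clusters of related genes, so a probe set can detect more than its named gene.

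Mean array intensity was between 310 and 317 units on 11 arrays and 246.7 units on the array of restimulated replicate C. Each array was set against the mean of the other arrays of its group, with replicate C left out for restimulated A and B. The median difference of the 149 genes was -0.46 on the log2 scale on restimulated replicate C. It was between -0.16 and 0.16 on the other arrays. The same median over all genes at the threshold was also -0.46 on restimulated replicate C. Counts of calls that use restimulated cells are therefore given with and without that array. All 8 measured macrophage markers had means of at least 100 units, with summed signals of 56580 to 65190 units in restimulated, 61550 to 63640 in pretreated, 55480 to 57140 in LPS-once and 58540 to 59680 in untreated cells. No measured T cell, B cell, dendritic, erythroid or mast cell marker reached a mean of 100 units. The fibroblast collagen gene Col1a1 had 507 and 1164 units in restimulated replicates A and B, 1119 and 1041 in pretreated, 693 and 1666 in LPS-once and 1033 and 1991 in untreated cells, and between 37.8 and 42.3 units in replicate C of all 4 groups. The neutrophil granule gene Ngp also varied between replicates, from 62.2 to 745 units in untreated cells. The 4 fibroblast markers summed to 157 to 2688 units in restimulated, 163 to 2480 in pretreated, 157 to 3127 in LPS-once and 118.5 to 3486 in untreated cells. The 4 measured neutrophil markers summed to 167.5 to 373 units in restimulated, 126 to 319 in pretreated, 238 to 1224 in LPS-once and 136 to 902.5 in untreated cells. The part of these other cells in the results was not tested.

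**Figure D1:**
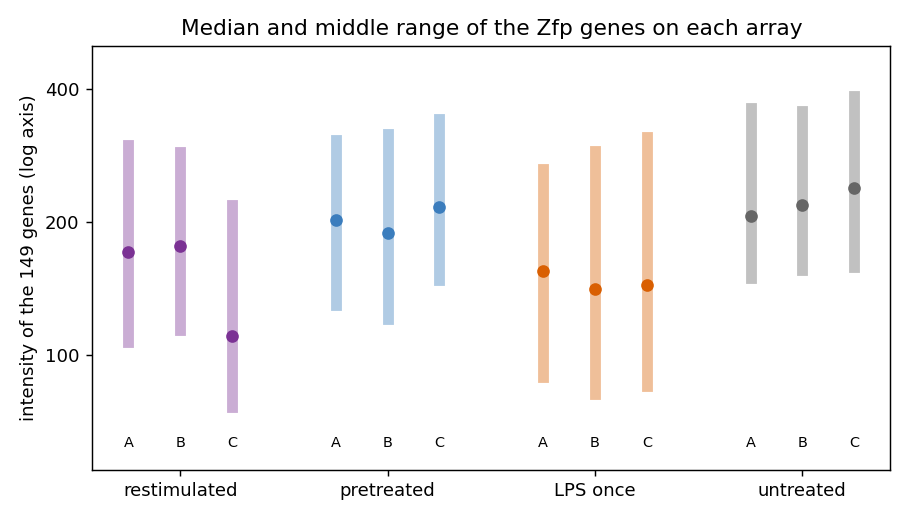
Intensity of the 149 Zfp genes on each array, on a log axis, with the median as a point and the range from the lower to the upper quartile as a bar, by group and replicate letter. The median was 110.4 units on restimulated replicate C, against 171 and 176.5 units on the other two restimulated arrays.

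In untreated cells the 149 genes had mean intensities between 100.5 and 2268 units, with a median of 222 units, and 117 of them lay under 400 units. Intensities of different probe sets depend on their probes, so they do not rank the genes. Several members with roles outside DNA binding were measured with strong signal. Zfp622, a ribosome biogenesis factor known from its yeast counterpart, had 1483, 1559.6 and 1504 units in restimulated, 1724, 1657 and 1998 in pretreated, 1957, 1912 and 2452 in LPS-once and 2054, 2281 and 2468 in untreated cells. Zfp207, a microtubule-binding protein of the mitotic spindle, had 1554, 1577 and 1120.1 units in restimulated, 1217, 1411 and 1309.6 in pretreated, 1711, 1760.2 and 1456 in LPS-once and 1285, 1334 and 1270.0 in untreated cells. Both genes stayed well above the threshold in every group. Zfp445, a KRAB protein that helps keep genomic imprints, had 1363, 1300.2 and 1035 units in restimulated, 1541, 1339 and 1324 in pretreated, 938, 1190.0 and 1136 in LPS-once and 1225, 1327 and 1239 in untreated cells. In other groups some members lay under the threshold: 36 in restimulated cells (28 without restimulated replicate C), 10 in pretreated cells and 54 in cells given LPS once. The members entered by their untreated signal, so only the other groups could hold values under the threshold. The same counts over all genes at the threshold were not made, and nothing is read from these counts.

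In cells given LPS once, most of the 149 genes were lower than in untreated cells, and 3 were called higher. A gene was called when limma's adjusted p over all 18193 genes was under 0.05 and the difference at least 2-fold on log2(intensity + 16). The rule read the untreated arrays, so the values of this comparison are a description and no single-gene p is given. Of the 149 genes, 3 were called higher and 47 lower, and 117 had a difference below 0. Among all genes tested, 3.92% were called higher and 9.16% lower, and among all genes at the threshold 6.11% and 18.8%. The median difference of the Zfp genes was -0.55, beside -0.32 for all genes at the threshold and 0.04 for all genes tested. A gene that entered by its signal in untreated cells is likelier to be lower in another group than higher, so nothing is read from these counts. In RNA from whole cultures, less RNA per cell and fewer cells of a type cannot be told apart.

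The gene with the highest positive difference was Zfp800, with 907, 812 and 1021 units in LPS-once cells and 158, 179.8 and 185 units in untreated cells. Its arrays did not overlap, and the log2 difference was 2.29 ± 0.26 (SE). Zfp281, a transcription factor studied in the pluripotency of mouse embryonic stem cells, had 1332, 1326 and 1070.3 units in LPS-once cells and 434, 382 and 427 units in untreated cells, a difference of 1.54 ± 0.17. Zfp131, a BTB domain zinc finger protein, had 1035, 1663 and 1632 units in LPS-once cells and 394, 504 and 488 units in untreated cells, a difference of 1.59 ± 0.17. In all of these the 3 LPS-once arrays were the higher ones, and for Zfp131 replicate A was lower than B and C. Zfp263, whose human counterpart ZNF263 is a DNA-binding protein with SCAN and KRAB domains, had 1607, 2146 and 2441 units in LPS-once cells and 1099.6, 1006 and 953 units in untreated cells. Its difference of 0.99 ± 0.22 fell just short of 2-fold, while a second probe set of the gene gave 1.03 and was called higher. Other probe sets also went the same way for Zfp281, at 1.99, and for Zfp800, at 2.04 and 1.33.

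These 4 genes had the largest of the 32 positive differences among the members after a first dose. Zfp467 was 1 of the 47 members called lower, and others of the 47 had larger negative differences. The promoters of these genes are shown. Each runs from 250 bases before to 50 after a start site listed by RefSeq on build GRCm38.p6, 5′ to 3′ on the gene's strand, with matches to the NF-kB motif GGGANNNNCC on either strand in capitals. Zfp800 lies at chr6:28397956-28398255 on the minus strand, Zfp281 at chr1:136624651-136624950 on the plus strand, Zfp131 at chr13:119790683-119790982 on the minus strand, Zfp263 at chr16:3743849-3744148 on the plus strand and Zfp467 at chr6:48445041-48445340 on the minus strand. Zfp800 and Zfp131 have 2 listed start sites, and the first listed is shown.
Zfp800: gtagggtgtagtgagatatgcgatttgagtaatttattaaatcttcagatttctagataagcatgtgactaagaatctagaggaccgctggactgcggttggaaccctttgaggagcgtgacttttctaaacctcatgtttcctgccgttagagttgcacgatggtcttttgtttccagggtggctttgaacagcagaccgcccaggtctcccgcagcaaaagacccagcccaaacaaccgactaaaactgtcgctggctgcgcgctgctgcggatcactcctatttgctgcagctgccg
Zfp281: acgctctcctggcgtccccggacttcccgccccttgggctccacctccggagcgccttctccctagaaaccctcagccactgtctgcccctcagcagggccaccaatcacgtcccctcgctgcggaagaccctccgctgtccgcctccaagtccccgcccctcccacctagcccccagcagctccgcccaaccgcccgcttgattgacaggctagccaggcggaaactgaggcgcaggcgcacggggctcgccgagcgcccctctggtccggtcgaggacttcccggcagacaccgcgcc
Zfp131: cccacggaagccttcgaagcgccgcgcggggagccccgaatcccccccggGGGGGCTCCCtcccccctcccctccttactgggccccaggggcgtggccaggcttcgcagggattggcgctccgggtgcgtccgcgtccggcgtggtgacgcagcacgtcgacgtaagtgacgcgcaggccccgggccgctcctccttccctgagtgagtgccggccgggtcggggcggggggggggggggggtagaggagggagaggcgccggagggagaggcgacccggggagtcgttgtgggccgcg
Zfp263: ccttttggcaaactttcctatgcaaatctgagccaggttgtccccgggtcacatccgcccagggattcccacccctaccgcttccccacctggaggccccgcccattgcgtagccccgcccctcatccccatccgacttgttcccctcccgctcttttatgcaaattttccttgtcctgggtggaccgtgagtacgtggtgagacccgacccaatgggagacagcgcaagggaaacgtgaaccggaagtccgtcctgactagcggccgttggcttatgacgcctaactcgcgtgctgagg
Zfp467: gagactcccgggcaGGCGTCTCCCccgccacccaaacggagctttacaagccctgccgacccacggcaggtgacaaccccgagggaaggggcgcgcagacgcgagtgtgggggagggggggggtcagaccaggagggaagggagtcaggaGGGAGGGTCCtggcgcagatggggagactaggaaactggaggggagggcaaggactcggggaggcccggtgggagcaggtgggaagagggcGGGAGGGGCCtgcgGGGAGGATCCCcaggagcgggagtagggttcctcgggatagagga
The letters of Zfp800, Zfp281 and Zfp263 hold no match to this motif in the window, that of Zfp131 holds 1, and that of Zfp467 holds 5, 2 of them overlapping. GC content was 49.7% for Zfp800, 70.7% for Zfp281, 76.7% for Zfp131, 60.0% for Zfp263 and 69.7% for Zfp467. Of the 149 members, all matched RefSeq by gene identifier and 122 had a promoter in the table. The NF-kB motif was found in 23.0% of those 122 promoters, 25.9% of 6943 promoters of genes at the threshold and 20.5% of all 27025 promoters. The AP-1 motif TGANTCA was found in 5.74% of the members' promoters, 4.65% of those of genes at the threshold and 7.93% of all. The cyclic AMP response motif TGACGTCA was found in 4.1%, 3.4% and 1.88% of the same 3 sets, and TTTCNNTTTC, the core of the interferon response motif, in 0.82%, 3.17% and 3.49%, all searched on both strands. Median GC content was 57.7% in the members' promoters, 61.3% in those of genes at the threshold and 52.7% in all.

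Among the 47 genes called lower after LPS once, Zfp704 had the largest difference. It had 12.7, 20 and 22.9 units in LPS-once cells and 313, 378 and 419.6 units in untreated cells, a log2 difference of -3.48 ± 0.28. A second probe set for it gave -1.42. The median of all probe sets was 30.98 to 31.65 units on the LPS-once arrays, and Zfp704, Zfp395, Zfp763 and Zfp810 lay under it on all 3 of them, so the size of their differences depends on the pseudocount. For Zfp704 the difference was -4.28 with pseudocount 1 and -2.39 with pseudocount 64, and the gene was called with both. Zfp472 had 57.1, 43.9 and 35.0 units in LPS-once cells and 240.2, 246 and 328 units in untreated cells, a difference of -2.23 ± 0.23. Zfp810 differed by -2.14, Zfp362 by -2.08, Zfp90 by -2.06, Zfp395 by -1.99, Zfp157 by -1.99 and Zfp120 by -1.97. For all 47 genes the 3 LPS-once arrays lay below the 3 untreated arrays. Among all members, called or not, 94 lay below in this way and 14 above, beside 27% and 29.6% of all genes tested. The untreated arrays chose the members, so nothing is read from these counts. Zfp467, a factor that promotes adipocyte formation, had 44.4, 37.0 and 40.5 units in LPS-once cells and 179, 199.9 and 193 units in untreated cells, a difference of -1.87 ± 0.23, and its other two bright probe sets gave -1.47 and -1.95. Zfp809, the KRAB protein that recognises the primer binding site of murine leukemia viruses, had 122, 143 and 160.4 units in LPS-once cells and 301, 329 and 387 units in untreated cells, a difference of -1.17 ± 0.17.

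In pretreated cells 1 of the 149 genes was called against untreated cells, and again no single-gene p is given. Zfp608 had 33.8, 28.6 and 40.4 units in pretreated cells and 98.9, 106 and 98.9 units in untreated cells, a difference of -1.23 ± 0.08 on the log2 scale. Zfp608 was also lower in LPS-once cells, at 42.7, 45.1 and 38.8 units. None was called higher. In this comparison 0.297% of all genes were called higher and 0.319% lower, and 0.452% and 0.643% of all genes at the threshold. The median difference of the Zfp genes was -0.15, beside -0.06 for all genes at the threshold. Zfp704 differed by -0.83, Zfp800 by -0.73 and Zfp263 by -0.61, all short of a call. For these 3 genes the pretreated arrays lay below the untreated ones. Of the 149 members, 43 lay below in this way and 2 above, beside 11.6% and 15.7% of all genes tested. Because the untreated arrays chose the members, nothing is read from these counts either.

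**Figure D2:**
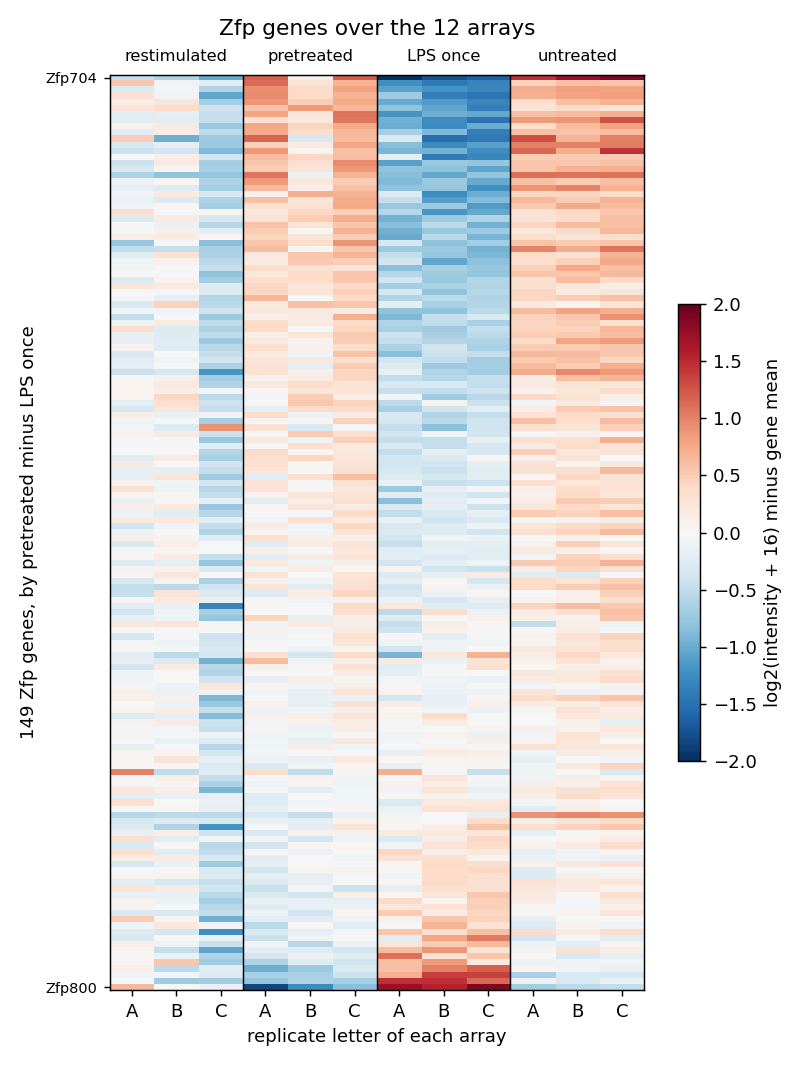
Each row is 1 of the 149 Zfp genes and each column 1 of the 12 arrays, coloured by log2(intensity + 16) minus the gene's mean over the arrays and ordered from Zfp704 to Zfp800 by the difference of pretreated minus LPS-once cells. Rows at the top are blue in the LPS-once columns, and restimulated replicate C is bluer than A and B over most of the figure.

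Pretreated cells were next compared with cells given LPS once, which sets cells with 18 h of LPS and a rest beside cells with only the last dose. The difference itself does not use the untreated arrays, so single genes were tested. The untreated arrays did choose the members and did enter limma's error estimate, so the p-values are not free of the rule. Few genes were called between pretreated and untreated cells, so the rule may also favour genes high in pretreated cells. The p-values given below for restimulated cells rest on the same error estimate. In pretreated cells 33 of the 149 genes rose and 4 fell relative to LPS-once cells, which is 22.1% and 2.68% of them. Of all genes tested, 8.91% were called higher and 4.27% lower, and of all genes at the threshold 18.2% and 7.16%. The members' share of higher calls was thus near that of all genes at the threshold, a set not matched to the members in signal. Their median difference was 0.41, beside 0.27 for all genes at the threshold. This comparison shares the LPS-once arrays with the one against untreated cells, so a low LPS-once value shows in both.

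The 4 genes that fell were the ones described above. Zfp800 had 63.3, 103 and 143 units in pretreated cells and 907, 812 and 1021 in LPS-once cells, and it fell by 3.01 on the log2 scale (SE 0.26, adjusted p = 3.24e-05). Zfp281 had 268, 303 and 292 units in pretreated cells and 1332, 1326 and 1070.3 in LPS-once cells, a difference of -2.05 ± 0.17 (adjusted p = 2.92e-05). Zfp131 had 392, 393 and 463 units in pretreated cells and 1035, 1663 and 1632 in LPS-once cells, a difference of -1.73 ± 0.17 (adjusted p = 8.22e-05). Every pretreated array of these genes lay below every LPS-once array. Zfp263 had 532, 626 and 865 units in pretreated cells and 1607, 2146 and 2441 in LPS-once cells, a difference of -1.60 ± 0.22 (adjusted p = 0.000456).

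Of the 33 genes that rose, 32 had pretreated arrays that all lay above the LPS-once arrays. A called gene is likelier to have arrays apart, so nothing is read from that count. Among all members, called or not, 75 had pretreated arrays above in this way and 18 below. Among all genes tested the shares were 24.6% and 22.4%. These shares were not made for all genes at the threshold, so nothing is read from the counts of members. Zfp704 had 257, 115 and 263 units in pretreated cells and 12.7, 20 and 22.9 in LPS-once cells, a difference of 2.65 ± 0.28 (adjusted p = 0.000103), with replicate B the lowest pretreated array. With its dim LPS-once signal, that difference was 3.39 with pseudocount 1 and 1.69 with pseudocount 64, both called. A second probe set of Zfp704 differed by 0.77 and was not called. Zfp467 had 296, 154 and 214 units in pretreated cells and 44.4, 37.0 and 40.5 in LPS-once cells, a difference of 2.02 ± 0.23 (adjusted p = 0.000156). Zfp157 had 177, 117 and 161 units in pretreated cells and 32.5, 28.2 and 25.1 in LPS-once cells, a difference of 1.90 ± 0.16 (adjusted p = 3.24e-05). No LPS-once array of these 3 genes was above 44.4 units. Zfp120, Zfp950, Zfp53, Zfp760 and Zfp472 also rose, by 1.86, 1.85, 1.76, 1.76 and 1.75. Zfp809 rose as well, with 304, 365 and 426 units in pretreated cells and 122, 143 and 160.4 in LPS-once cells, a difference of 1.27 ± 0.17 (adjusted p = 0.000359). Zfp90 was the exception whose arrays overlapped, with 506, 171 and 344 units in pretreated cells and 174, 66.6 and 71.1 in LPS-once cells (difference 1.56 ± 0.49, adjusted p = 0.0372). That call was lost without pretreated replicate A or C, without LPS-once replicate B or C, or without any 1 of the untreated arrays, and the difference was 1.22 without pretreated replicate A.

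**Figure D3:**
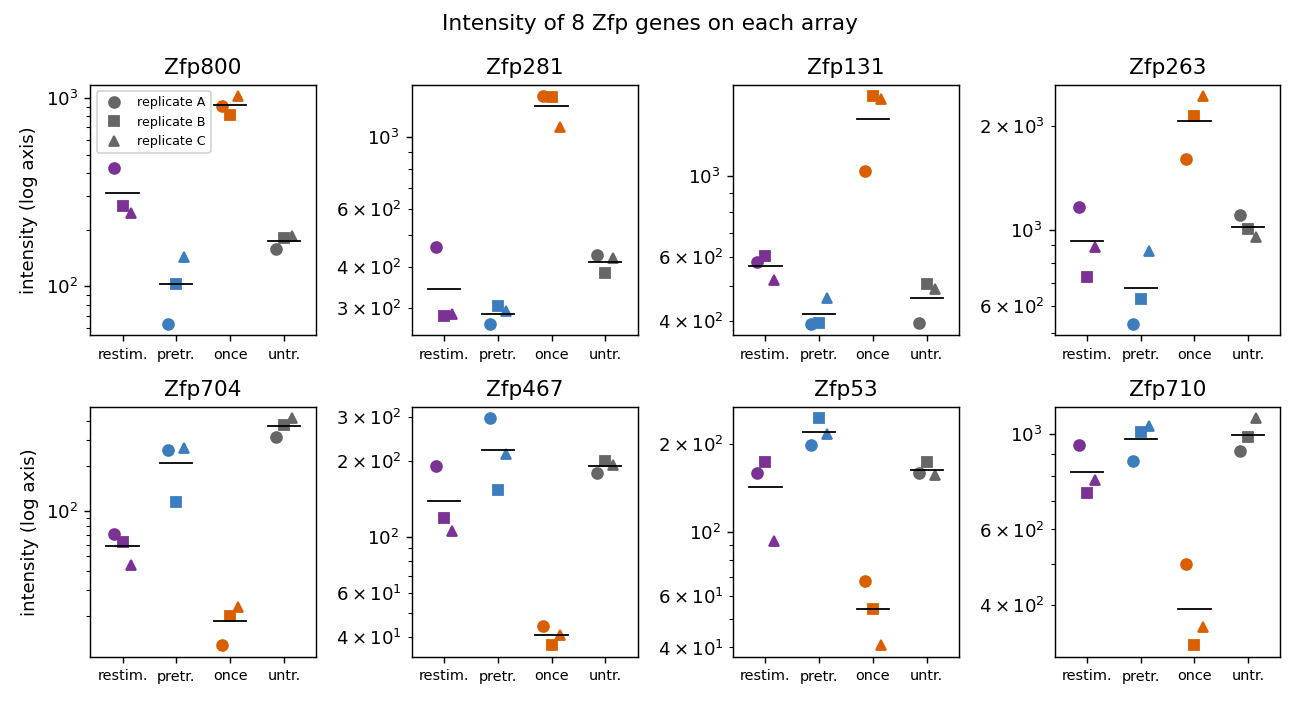
Intensity of 8 Zfp genes on each of the 12 arrays, on log axes that differ between genes, with circles, squares and triangles for replicates A, B and C and a line at the mean, for restimulated (restim.), pretreated (pretr.), LPS-once (once) and untreated (untr.) cells. Zfp800, Zfp281, Zfp131 and Zfp263 were highest in LPS-once cells, at 811.8 units or more on every LPS-once array, and Zfp704, Zfp467, Zfp53 and Zfp710 were lowest there.

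The second dose was measured by restimulated against pretreated cells. Of the 149 genes 1 rose and 5 fell, which is 0.671% and 3.36%, with a median difference of -0.33. Of all genes tested 0.665% were called higher and 1.32% lower, and of all genes at the threshold 1.08% and 2.76%, with a median of -0.24. Without restimulated replicate C the count was 1 higher and 0 lower, beside 0.893% and 1.1% of all genes at the threshold, and the median was -0.18, beside -0.08 for those genes. A negative difference with a p under 0.05 before adjustment was then found for 42 members, which is 28.2%, beside 17.3% of all genes at the threshold and 9.63% of all genes tested. No member was called lower without that array, though the differences of the 5 genes stayed negative. Leaving out pretreated replicate A or pretreated replicate C also gave 0 falls, leaving out restimulated replicate A gave 2, and leaving out pretreated replicate B or restimulated replicate B gave 11 and 10.

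Zfp800 was the member that rose. It had 426, 266 and 244 units in restimulated cells and 63.3, 103 and 143 in pretreated cells, with no overlap, and differed by 1.48 ± 0.26 (adjusted p = 0.0161), and by 1.62 without restimulated replicate C (adjusted p = 0.0291). Its other probe sets above 100 units differed by 1.15 and 0.67 and were not called. Zfp704 had 71.1, 62.3 and 43.9 units in restimulated cells and 257, 115 and 263 in pretreated cells, a difference of -1.54 ± 0.28 (adjusted p = 0.0196), and without restimulated replicate C -1.38 (adjusted p = 0.0636). A second probe set of Zfp704 differed by -0.25 and was not called. Zfp395 had 32.2, 26.8 and 27.6 units in restimulated cells and 141, 51.4 and 105 in pretreated cells, a difference of -1.27 ± 0.24 (adjusted p = 0.0224, and 0.0661 without that array). Zfp961, Zfp810 and Zfp157 differed by -1.14, -1.06 and -1.02, and without that array by -0.99, -0.90 and -0.88. The restimulated arrays of all 5 lay below the pretreated arrays. The other 3 genes that were high after a first dose were not called here: Zfp131 differed by 0.43 (adjusted p = 0.207), Zfp263 by 0.45 (adjusted p = 0.287) and Zfp281 by 0.21 (adjusted p = 0.512). For Zfp281 the sign turned without restimulated replicate A, to -0.011.

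Restimulated cells were also set beside LPS-once cells, so that both groups had the last dose and differed in the earlier 18 h of LPS. Of the 149 genes 5 rose and 6 fell, which is 3.36% and 4.03%, with a median difference of 0.09. Of all genes tested 2.51% were called higher and 3.21% lower, and of all genes at the threshold 5.27% and 5.41%, with a median of 0.04. Without restimulated replicate C, 10 rose and 4 fell, beside 8.48% and 3.88% of all genes at the threshold, and the median was 0.24, beside 0.18 for those genes. With quantile normalization between arrays, 6 rose and 4 fell. Leaving out restimulated replicate A, restimulated replicate B or LPS-once replicate C left 2 rises.

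Zfp281 had 459, 283 and 287 units in restimulated cells and 1332, 1326 and 1070.3 in LPS-once cells, a difference of -1.84 ± 0.17 (adjusted p = 0.000178). A second probe set differed by -2.05 and was called too. Zfp800 had 426, 266 and 244 units in restimulated cells and 907, 812 and 1021 in LPS-once cells, a difference of -1.54 ± 0.26 (adjusted p = 0.00366). Zfp131 had 582, 601 and 517 units in restimulated cells and 1035, 1663 and 1632 in LPS-once cells, a difference of -1.30 ± 0.17 (adjusted p = 0.00128). Zfp263 had 1163, 727 and 891 units in restimulated cells and 1607, 2146 and 2441 in LPS-once cells, a difference of -1.15 ± 0.22 (adjusted p = 0.00719), with -0.99 and no call when restimulated replicate B was left out. All 4 were lower in restimulated than in LPS-once cells, with no overlap of arrays. All 4 remained called without restimulated replicate C, at -1.73, -1.39, -1.23 and -1.13. Zfp326, whose human counterpart belongs to a complex linking RNA polymerase II to splicing, had 196, 182 and 91.1 units in restimulated cells and 356, 304 and 368 in LPS-once cells, a difference of -1.11 ± 0.22 (adjusted p = 0.00865). Zfp292 had 304, 209.6 and 135 units in restimulated cells and 465, 564 and 363 in LPS-once cells, a difference of -1.09 ± 0.24 (adjusted p = 0.0145). Without restimulated replicate C, Zfp326 and Zfp292 differed by -0.80 and -0.81 and fell short of 2-fold, and Zfp292 also did so without LPS-once replicate B, at -0.95.

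The genes that rose in restimulated against LPS-once cells were Zfp467, Zfp53, Zfp704, Zfp950 and Zfp710. Zfp467 had 191, 119 and 105 units in restimulated cells and 44.4, 37.0 and 40.5 in LPS-once cells, a difference of 1.41 ± 0.23 (adjusted p = 0.0034). Zfp53 had 159.6, 174 and 93.1 units in restimulated cells and 67.8, 54.4 and 40.6 in LPS-once cells, a difference of 1.15 ± 0.20 (adjusted p = 0.00501). Zfp710 had 941, 728 and 784 units in restimulated cells and 498, 323 and 357 in LPS-once cells, a difference of 1.05 ± 0.16 (adjusted p = 0.00226). Zfp704 and Zfp950 differed by 1.11 ± 0.28 (adjusted p = 0.0252) and 1.05 ± 0.22 (adjusted p = 0.0121). In each of these 5 genes the restimulated arrays lay above the LPS-once arrays. Each remained called without restimulated replicate C, and Zfp467 was the one of them that stayed called without any other single array. The call of Zfp53 was lost without restimulated replicate B, at 0.996 on the log2 scale, and that of Zfp950 without restimulated replicate A, restimulated replicate B or LPS-once replicate C, down to 0.88. The call of Zfp710 was lost without LPS-once replicate B or C or restimulated replicate A, down to 0.92, and that of Zfp704 without any of the 3 LPS-once arrays or restimulated replicates A or B, with differences of 0.99 to 1.21. For Zfp704 the difference was 1.63 with pseudocount 1, and 0.57 and not called with pseudocount 64.

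**Figure D4:**
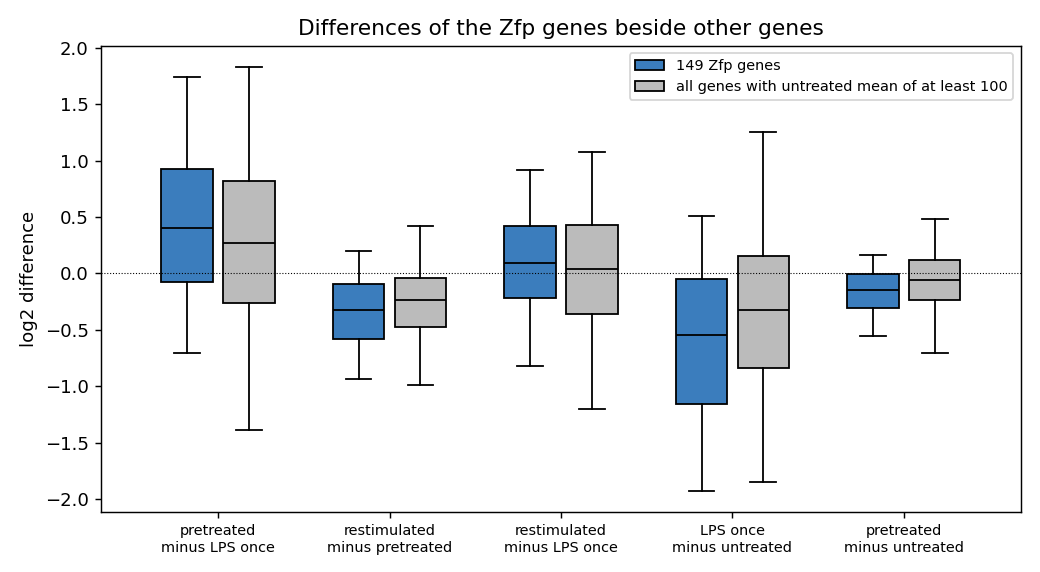
Log2 differences of the 149 Zfp genes (blue) and of all 8399 genes with an untreated mean of at least 100 (grey) in 5 comparisons, with the median as a line, the quartiles as the box and the 5th and 95th percentiles as whiskers. The median of the Zfp genes was 0.41 in pretreated minus LPS-once cells and -0.55 in LPS-once minus untreated cells, beside 0.27 and -0.32 for all such genes.

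The 2 responses to LPS were compared gene by gene as the difference between the second response (restimulated minus pretreated) and the first (LPS once minus untreated). In this description, 5 of the 149 genes had a higher and 2 a lower second than first response, and Zfp704, Zfp472, Zfp362, Zfp710 and Zfp579 on one side and Zfp281 and Zfp131 on the other made up these calls. Of all genes tested 1.24% were called higher and 1.45% lower, and of all genes at the threshold 2.68% and 2.05%. Without restimulated replicate C the counts were 13 and 2, beside 5.71% and 1.96% of all genes at the threshold, and with quantile normalization 5 and 1. The higher count was 0 without untreated replicate B or restimulated replicate A, and the lower count was 0 without untreated replicate B or C. On 30 of the 149 genes the 3 LPS-once arrays lay below all 9 other arrays, and on 8 above them. Among all genes tested 9.2% lay below and 8.59% above in this way, and among all genes at the threshold 17.9% and 11.8%. Against the 8 other arrays that remain without restimulated replicate C, the LPS-once arrays lay below on 63 of the 149 genes and above on 8, beside 33.2% and 12% of all genes at the threshold and 17.2% and 11.4% of all genes tested. The other arrays include the untreated ones that chose the members, so nothing is read from these counts of arrays below or above.

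Of 28 genes listed for a known role, 24 were among the 149. In LPS-once cells against untreated cells Zfp281 was called higher and Zfp106 and Zfp809 lower, with a median of -0.24 over the 24, beside 6.11% and 18.8% called and a median of -0.32 among all genes at the threshold. In pretreated against LPS-once cells Zfp809 rose and Zfp263 and Zfp281 fell, and in restimulated against LPS-once cells Zfp263, Zfp281 and Zfp326 fell (Zfp263 and Zfp281 without restimulated replicate C). Of all genes at the threshold, 18.2% were called higher and 7.16% lower in the first of these comparisons, and 5.27% and 5.41% in the other. None of the 24 was called in restimulated against pretreated cells by limma, with or without that array. With all arrays, 1.08% and 2.76% of all genes at the threshold were called higher and lower there. Before adjustment, 6 of the 24 had a limma p under 0.05 with all arrays. Of the 8399 genes at the threshold, 412 with a positive and 2368 with a negative difference had such a p. Zfp106, an RNA-binding protein needed by motor neurons, had 580.0, 615 and 572 units in LPS-once cells and 1201, 1262 and 1341 units in untreated cells, a difference of -1.08 ± 0.17, but a second probe set gave -0.24. Zfp91, a ubiquitin ligase of the non-canonical NF-kB pathway, had 1126, 1281 and 1307 units in pretreated cells and 782, 767 and 807 in LPS-once cells, a difference of 0.64 ± 0.09 that was short of 2-fold (adjusted p = 0.00039). A second probe set of Zfp91 differed by -0.29 in the same comparison, so the gene's direction is not settled. Zfp451, whose human counterpart is a SUMO ligase, had 208, 179 and 264 units in pretreated cells and 216, 234 and 322 in LPS-once cells, a difference of -0.23 ± 0.23 that was not called. Other probe sets of Zfp451 fell by 1.88 and 1.14 there and were called. Zfp593, a factor of large ribosomal subunit maturation known from yeast, differed by -0.89 ± 0.22 in pretreated against LPS-once cells (adjusted p = 0.0111), short of 2-fold. Zfp598, a ubiquitin ligase that senses collided ribosomes, had 449, 927 and 1113 units in LPS-once cells and 403, 515 and 454 in untreated cells, with overlapping arrays because LPS-once replicate A was far below B and C.

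Of 30 listed genes for the repression machinery that KRAB proteins recruit, 28 were measured. In pretreated against LPS-once cells 7 rose and 0 fell, with a median of 0.18. Of all genes tested 8.91% were called higher, with a median of -0.03, and of all genes at the threshold, which 25 of the 28 reached, 18.2%, with a median of 0.27. Those 7 were Atf7ip, the partner of SETDB1, at 2.81, the maintenance DNA methyltransferase gene Dnmt1 at 2.55, Setdb1 itself at 1.59, Dnmt3a, the heterochromatin protein gene Cbx5, the remodeller gene Chd3 and the methyltransferase gene Ehmt2. Setdb1 had 581, 578 and 675 units in pretreated cells and 206, 189 and 181 units in LPS-once cells. Trim28 was not called in that comparison, with 1044, 1180 and 1261 units in pretreated cells and 882, 936.5 and 1140.0 units in LPS-once cells. Other listed genes had limma's adjusted p under 0.05 there but fell short of 2-fold. Of these Hdac2 differed by -0.84 and Cbx3 by -0.25, and Cbx1 by 0.49, Ehmt1 by 0.76 and Rbbp4 by 0.28. In restimulated against LPS-once cells Atf7ip and Dnmt1 rose, by 1.69 and 1.44. These 2 genes fell in restimulated against pretreated cells, and without restimulated replicate C the list had 1 such call, that of Atf7ip, and 3 rises in restimulated against LPS-once cells. Of all genes at the threshold, 5.27% were called higher in restimulated against LPS-once cells, and 8.48% without that array. In restimulated against pretreated cells 2.76% of them were called lower, and 1.1% without that array.

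In all, 35 genes with symbols of the Zbtb, Zkscan, Zscan and Zfhx kinds, most of them other C2H2 proteins, met the same threshold. They were taken by symbol, so Zbtb11os1, by its name an opposite-strand transcript of Zbtb11, was counted among them. In pretreated against LPS-once cells 10 of these 35 rose and 1 fell, with a median of 0.61, beside 18.2% called higher, 7.16% lower and a median of 0.27 among all genes at the threshold. Zbtb7a, which encodes a BTB zinc finger repressor, was the one that fell, by 1.68. Zfhx3 was among those that rose, with 418, 296 and 427 units in pretreated cells and 89.8, 120.5 and 124.5 units in LPS-once cells. The mRNA-destabilising proteins left out by the rule went different ways: in pretreated against LPS-once cells Zfp36 fell by 2.72, while Zfp36l1 rose by 1.55 and Zfp36l2 by 4.02.

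By RefSeq gene order, 65 of the 149 members lay directly beside another Zfp gene and 84 did not. In pretreated against LPS-once cells 18 of the 65 rose and 0 fell, with a median of 0.52, and 15 of the 84 rose and 4 fell, with a median of 0.26. Of all genes at the threshold 18.2% were called higher and 7.16% lower there, with a median of 0.27, and the difference between the 65 and the 84 was not tested. The median untreated intensity was 193 units for the 65 and 292 units for the 84, and its part in this was not tested. The longest run held 7 members, Zfp429, Zfp729a, Zfp729b, Zfp748, Zfp87, Zfp874a and Zfp953, among 20 genes in a row, and 1 of the 7 rose. Of the 149 probe sets, 8 had identifiers ending in _x_at and 4 in _s_at, which mark probes that may bind several transcripts. Of 53 other probe sets above 100 units on average, in 38 of the genes, 43 had the sign of the one used in pretreated against LPS-once cells, and no pair had opposite calls.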

How the data were processed

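The deposited table held 1 intensity per probe set and array on a linear scale, for 45101 probe sets and 12 arrays. TriFast was used to isolate the RNA, which was labelled by the Affymetrix standard procedure, per the labels' protocols. The sources used here do not name the program, background correction or scaling behind these intensities. By the platform annotation, 34945 probe sets had 1 symbol, 932 several and 9160 none, and 64 were controls. Each gene was read from its single-symbol probe set of highest average over all 12 arrays, and values were used as log2(intensity + 16), which understates the change of dim genes, with no further normalization.

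Group means of all 12 arrays were fitted with limma 3.58.1 in R 4.3.3 (8 residual and 1.71 prior degrees of freedom), and p-values were adjusted by Benjamini-Hochberg over 18193 genes. The fit was tested on simulated data. Errors are limma's standard errors, and 3 arrays a group limit the precision. The members, the lists and the tests were chosen with earlier results of these data known. Named genes were the members with the largest differences in each contrast, those next to the threshold, members with known roles and members of the lists that were called. Deviations from group means correlated between arrays of the same letter (18 pairs, r from 0.252 to 0.661) and not between letters (36 pairs, median -0.2). Deviations within a group cancel, which lowers the correlations between letters. The letters were taken to pair the samples. The main fit had no term for the letter, so its errors and p-values leave this pairing out. Alternatives covered the replicate block, quantile normalization, the pseudocount, dim genes, the arrays fitted, the probe set, the threshold, the minimum fold and single arrays left out, and leaving restimulated replicate C out of the counts of array overlap, of genes under the threshold and of role genes was added after seeing the data. Protein sequences were not analysed here.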

Additional observations from a re-analysis of the deposited data

Results flagged for a closer look

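The difference between the second response (restimulated minus pretreated) and the first (LPS once minus untreated) was large for a few of the 149 genes, 5 with a higher and 2 with a lower second than first response by limma at 2-fold. Because the first response uses the untreated arrays that chose the genes, these are descriptions. The log2 difference between the responses was 1.95 for Zfp704, which was lower by 1.54 in the second response and by 3.48 in the first. Its LPS-once signal lay under the median of all probe sets on those arrays, and the difference was 2.52 with pseudocount 1 and 1.27, no longer called, with pseudocount 64. It was 1.41 for Zfp472, 1.19 for Zfp362, 1.08 for Zfp710 and 1.04 for Zfp579. With the replicate letter as a block, Zfp472 was no longer called and Zfp467, at 1.25, was. The difference was -1.34 for Zfp281, whose first response was 1.54 and second 0.21, and -1.15 for Zfp131, whose first response was 1.59 and second 0.43. Without restimulated replicate C these 7 genes had differences of 2.10, 1.49, 1.36, 1.10, 1.15, -1.23 and -1.09 in the same order. Restimulated replicate C was also the array with the lowest overall intensity.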

How the results depend on the processing

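Counts of called Zfp genes changed with several choices. With pseudocount 1, 10 rose in restimulated against LPS-once cells and 9 fell in restimulated against pretreated cells. With pseudocount 64, pretreated against LPS-once cells had 19 rises, LPS-once against untreated cells 24 lower, restimulated against LPS-once cells 0 rises, restimulated against pretreated cells 1 fall, pretreated against untreated cells 0 lower and the difference of responses 0 higher. With no minimum fold the counts were 6 higher and 76 lower for LPS once against untreated, 65 and 13 for pretreated against LPS once, 22 and 14 for restimulated against LPS once, 17 falls for restimulated against pretreated and 10 higher for the difference of responses. With the mean of a gene's probe sets, restimulated against LPS-once cells had 1 rise, restimulated against pretreated cells 0 rises and 2 falls, and pretreated against untreated cells 0 lower. A threshold of 200 gave 18 rises for pretreated against LPS once, 3 for restimulated against LPS once, 22 lower for LPS once against untreated, 0 rises and 1 fall for restimulated against pretreated, and 0 lower for pretreated against untreated. Choosing genes by the mean over 12 arrays gave 5 higher for LPS once against untreated, 2 rises and 2 falls for restimulated against pretreated, and 0 lower for pretreated against untreated. Fitting only the groups compared gave 3 rises and 3 falls for restimulated against LPS once and 0 and 0 for restimulated against pretreated. Quantile normalization gave 3 falls for restimulated against pretreated and 1 lower for the difference of responses. It moved the median of all genes at the threshold from -0.32 to -0.22 in LPS-once against untreated cells, where the Zfp genes' median was then -0.30, and from -0.24 to -0.07 in restimulated against pretreated cells, where it was -0.14. The cause of these changes was not tested.

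Leaving out 1 array at a time gave 3 to 5 higher and 44 to 47 lower for LPS once against untreated, 0 to 0 higher and 1 to 1 lower for pretreated against untreated, 1 to 1 rises and 0 to 11 falls for restimulated against pretreated, 2 to 10 rises and 4 to 8 falls for restimulated against LPS once, 31 to 38 rises and 4 to 6 falls for pretreated against LPS once, and 0 to 13 higher and 0 to 3 lower for the difference of responses. The replicate block left every count of Zfp genes at its main value within 1.5 times (47 lower in LPS once against untreated, 33 rises in pretreated against LPS once), and it changed no call of a Zfp gene other than those of Zfp472 and Zfp467 in the difference of responses. Of 79 single-gene differences, 35 kept their call and direction under every alternative, 31 lost a call under some, 12 gained one under some and 1 turned sign: Zfp281 in restimulated against pretreated cells, with differences of -0.011 without restimulated replicate A and up to 0.32 without restimulated replicate B. Genes near the array's background have differences that the pseudocount shrinks.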

Other observations

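Among the 184 Zfp-number genes under the untreated threshold, Zfp811 had the largest first response, and it was chosen for mention after its values were seen. It had 507, 265 and 411 units in restimulated cells, 23.9, 47.9 and 29.3 units in pretreated cells, 240.2, 298 and 816 units in LPS-once cells and 25.3, 30.3 and 29.0 units in untreated cells. Its arrays after either dose lay above all arrays without a last dose, with log2 differences of 3.03 in restimulated against pretreated cells and 3.20 in LPS-once against untreated cells, both called. The restimulated and LPS-once arrays overlapped. Without single arrays the 2 differences ranged from 2.83 to 3.28 and from 2.68 to 3.53.

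Zfp719 was also called higher in LPS-once cells, with 261, 270.1 and 257 units there and 73.4, 60.9 and 60.9 units in untreated cells, while its 161, 214 and 115 units in restimulated cells against 47.9, 86.0 and 104.0 in pretreated cells were not called, though they were without restimulated replicate C, with a log2 difference of 1.13. Zfp558 had 53.8, 133 and 65.7 units in LPS-once cells and 13.98, 18.8 and 20.4 units in untreated cells, and 21.1, 24.1 and 17.0 units in restimulated cells. In all, 5 of these 184 genes had a mean of at least 100 units in restimulated cells (2 without restimulated replicate C), 3 in pretreated cells and 5 in LPS-once cells. These 184 genes were set apart by their untreated signal, so nothing is read from these counts.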
